A study of Arabidopsis thaliana with 12 samples.

Results

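The genes described here make brassinosteroid and pass its signal to the nucleus in *Arabidopsis thaliana*. They are *DWF4*, *CPD* and *BR6OX2*, which encode enzymes of hormone synthesis, *BRI1*, which encodes the receptor, and *BZR1* and *BES1*, which encode the transcription factors at the end of the pathway. The 6 genes were chosen by their gene IDs, out of 23784 genes counted. RNA was sequenced from 4 genotypes with 3 samples each. The *octuple* mutant (*epn;quintuple*) carried mutations in *CBP60b*, *CBP60c*, *CBP60d*, *CBP60e*, *CBP60f*, *EDS1*, *PAD4* and *NDR1*. The *quintuple* mutant carried the mutations in the CBP60 genes alone, and the *epn* mutant carried those in *EDS1*, *PAD4* and *NDR1* alone. The wild type (WT) was Columbia-0. All samples were aerial parts of 2-week-old seedlings kept in long days with 16 h of light, and each sample was a pool of 20 to 30 seedlings. The study describes *quintuple* plants as autoimmune and as dying by about 2 weeks after germination, close to the age sampled here. The labels do not say which *quintuple* line was sequenced. The study asked whether immune genes are still highly expressed in *octuple*, which lacks EDS1, PAD4 and NDR1, proteins that act in signalling downstream of immune receptors.

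Brassinosteroids are steroid hormones of plants that promote cell elongation, leaf growth and vascular differentiation. The hormone binds the leucine-rich repeat receptor kinase BRI1 at the cell surface, which then works with co-receptors of the SERK family such as BAK1. The signal passes through BSK kinases and BSU1-type phosphatases and inactivates the GSK3-like kinase BIN2, and BZR1 and BES1 then lose their phosphate groups and act in the nucleus. BZR1 and BES1 bind the brassinosteroid response element (BRRE) and the E-box, repress synthesis genes such as *DWF4* and *CPD* as a feedback, and activate growth genes. BAK1 is also a co-receptor of immune receptors. RNA levels do not show the phosphorylation of BZR1 and BES1, so the measurements below concern transcript amounts only.

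The promoters of *BZR1* and *BR6OX2*, the members that rose in *quintuple*-vs-WT, and of *BES1*, the closest relative of *BZR1*, are shown because BZR1 and BES1 act on brassinosteroid genes through short DNA elements. Each window holds the 250 bases before the annotated gene start in the RefSeq assembly TAIR10.1, written 5′ to 3′ on the strand of the gene, and capitals mark BRRE (CGTGTG or CGTGCG) and G-box (CACGTG) matches on either strand.
BZR1, chr1:28185254-28185503, plus strand: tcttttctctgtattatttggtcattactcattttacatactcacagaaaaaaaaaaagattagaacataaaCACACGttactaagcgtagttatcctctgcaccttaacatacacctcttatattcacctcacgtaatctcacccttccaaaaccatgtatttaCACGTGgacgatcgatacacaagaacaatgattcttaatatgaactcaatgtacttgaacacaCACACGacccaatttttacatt
BES1, chr1:6688213-6688462, plus strand: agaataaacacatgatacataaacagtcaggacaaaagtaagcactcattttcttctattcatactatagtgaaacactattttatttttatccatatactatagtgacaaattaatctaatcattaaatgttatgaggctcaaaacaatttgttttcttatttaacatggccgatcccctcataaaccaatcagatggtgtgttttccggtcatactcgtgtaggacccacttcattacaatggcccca
BR6OX2, chr3:11810476-11810725, plus strand: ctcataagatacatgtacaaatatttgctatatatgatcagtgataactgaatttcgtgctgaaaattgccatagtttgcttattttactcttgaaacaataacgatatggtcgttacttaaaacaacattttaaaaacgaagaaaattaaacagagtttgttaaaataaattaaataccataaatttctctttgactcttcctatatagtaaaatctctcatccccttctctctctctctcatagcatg

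The *BZR1* window held 2 BRRE matches, which start 178 and 22 bases before the gene, and 1 G-box match at 85 bases. The windows of the other 5 members held neither motif, and sequence outside these 250 bases was not searched. Of 23783 windows of the same length before all counted genes, 6.93% held a BRRE and 7.1% held a G-box. The wider E-box, CANNTG, of which the G-box is a form, was in 56.1% of windows and in those of all members but *BR6OX2*. A match is a run of letters, and binding was not measured.

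Between 38698646 and 44294404 fragments were counted per library, and a count of 0 leaves room for up to 3 counts, or 0.0677 to 0.0775 CPM (counts scaled to library size). Leaf markers had high levels in every library, with a sum of 4 markers of 4110 to 22900 CPM in *quintuple* and of 32200 to 72100 CPM in the other genotypes. The leaf markers *RBCS1A*, *RCA*, *LHCB1.3* and *LHCA1* had log2 fold changes of -2.33, -1.59, -1.83 and -1.42 in *quintuple*-vs-WT. In the edgeR test of the 6 libraries of that comparison without a block, 0 of 4 passed (adjusted p = 0.0504 to 0.351). With the replicate number as a block 3 fell, and without the replicate 3 libraries 4 fell. Over these and the other alternatives that keep all libraries, the adjusted p of *RBCS1A* ran from 4.09e-09 to 0.0987. *RBCS1A* passed in background dependence, defined below (2.24, adjusted p = 0.0397). Of 6 root markers 5 were in the counts, with a sum of at most 0.588 CPM. The 5 flower markers summed to at most 4.3 CPM, and of those tested *PI* rose (log2 3.52, adjusted p = 0.0118) and *AG* fell (-2.3, adjusted p = 0.0218) in *quintuple*-vs-WT, and *AG* fell in *octuple*-vs-*epn* (-2.66, adjusted p = 0.025). That last call passed with the block (0.00735). It was lost without each library in turn (0.0676 to 0.103) and without the replicate 3 libraries (-2.6, adjusted p = 0.0582). The sum of 4 immune markers (*PR1*, *PR2*, *PR5* and *SID2*) was 983 to 1300 CPM in *octuple*, 7930 to 13300 CPM in *quintuple*, 22.2 to 37.2 CPM in *epn* and 27.1 to 133 CPM in WT. The sum of 4 senescence markers was 53.4 to 185 CPM in *octuple*, 718 to 982 CPM in *quintuple*, 13.3 to 36.4 CPM in *epn* and 13.2 to 36.5 CPM in WT. All 4 immune markers and the 3 senescence markers tested rose in *quintuple*-vs-WT. The values below stand beside these differences of leaf, flower, immune and senescence markers. The part of the markers in the results was not tested. In bulk RNA, fewer cells of a type and less RNA per cell cannot be told apart. Among the mutated genes, *EDS1*, *PAD4* and *NDR1* averaged 7.4, 3.34 and 4.45 CPM in *octuple* and 101, 102 and 17.2 CPM in *quintuple*, against 21.1, 6.49 and 6.35 CPM in WT. Of the 5 CBP60 genes, *CBP60c* fell in both *octuple*-vs-WT (log2 -0.63, adjusted p = 0.0415) and *quintuple*-vs-WT (-0.49, adjusted p = 0.0154). The *octuple*-vs-WT call passed with the block (0.00611). It was lost without each library in turn (0.0952 to 0.163) and without the replicate 3 libraries (-0.62, adjusted p = 0.0896). The *quintuple*-vs-WT call held in 5 of 6 fits with a library left out, and scaling by library size alone gave -0.22. *CBP60b* rose to 208 ± 48.8 CPM in *quintuple*, against 42.7 ± 1.27 CPM in WT (SD, n = 3 each). In *quintuple*-vs-WT *CBP60e* fell (log2 -1.14, adjusted p = 0.0424) and *CBP60f* rose (1.0, adjusted p = 0.0353). Both passed with the block (0.0176 and 0.0175), and each call held in 2 of 6 fits with a library left out (at most 0.132 and 0.109). *CBP60f* averaged 44.9 CPM in *octuple* and 10.8 CPM in WT. Its 2.06 in *octuple*-vs-WT did not pass (adjusted p = 0.0721), and it passed with the block (2.04, adjusted p = 4.34e-05) and without the replicate 3 libraries (2.1, adjusted p = 0.00262). Small edits need not change the amount of a transcript, so these levels are a weak check of the labels. The second principal component (13.5% of the variance) set the 4 libraries numbered 3 off from the rest, and values without these 4 libraries, chosen after the data were seen, are given where they change a call in the comparisons described for a gene.

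Per unit of length, *CPD* and *BES1* had the highest mean levels of the 6 transcripts in each genotype and *DWF4* the lowest. In WT, the mean levels were 56.2 FPKM (fragments per kilobase, scaled to library size) for *CPD*, 45.3 for *BES1*, 28.0 for *BRI1*, 11.1 for *BZR1*, 9.44 for *BR6OX2* and 3.21 for *DWF4*. The ranges of *CPD* and *BES1* overlapped in each genotype, and those of *BZR1* and *BR6OX2* overlapped in *quintuple*, *epn* and WT but not in *octuple*. In *quintuple* the ranges of *CPD* (20.0 to 47.8 FPKM) and *BES1* (28.8 to 47.9 FPKM) also overlapped that of *BRI1* (27.2 to 36.1 FPKM), and those of *CPD* and *BZR1* (20.3 to 27.4 FPKM) overlapped as well. There *BZR1* and *BR6OX2* came closer to the others, with means of 23.2 and 19.9 FPKM, against 32.8 FPKM for *BRI1*. All 6 genes passed the filter on low counts in every comparison, with at least 245 counts in each library. In the text, a gene "rose" or "fell" where edgeR's quasi-likelihood test gave an adjusted p below 0.05 over all genes tested. The levels of each library are in CPM with TMM scaling.

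**Figure D1:**
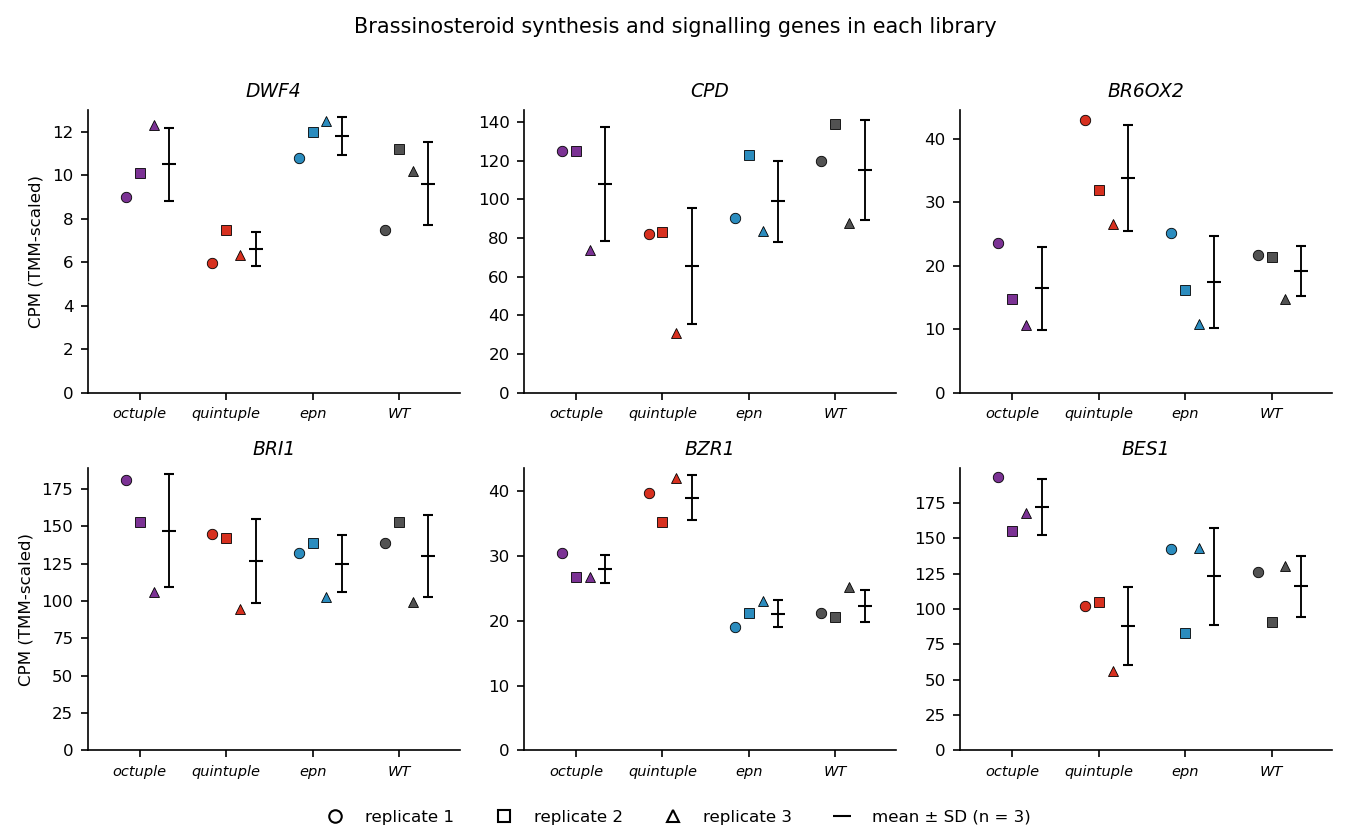
TMM-scaled CPM of the 6 genes in each of the 12 libraries, by genotype from *octuple* to WT, with symbols for replicates 1 to 3 and the mean and SD (n = 3) beside them. *BZR1* and *BR6OX2* were higher in all *quintuple* libraries than in all WT libraries, and *BES1* was higher in all *octuple* libraries than in any other.

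*DWF4* (AT3G50660, chr3:18813949-18817405, minus strand) encodes the cytochrome P450 of the committed and rate-limiting step of synthesis. It had 8.99, 10.1 and 12.3 CPM in *octuple*, 5.98, 7.49 and 6.34 CPM in *quintuple*, 10.8, 12.0 and 12.5 CPM in *epn*, and 7.47, 11.2 and 10.2 CPM in WT. All *quintuple* libraries were below all *octuple* and *epn* libraries, while the highest *quintuple* library reached the lowest WT library. In *quintuple*-vs-WT the log2 fold change was -0.54 ± 0.21 (SE) and did not pass (adjusted p = 0.06). It passed with the replicate number as a block (-0.53, adjusted p = 0.0479), with DESeq2 (adjusted p = 0.0464) and without WT replicate 1 (-0.72, adjusted p = 0.0313). Upper-quartile scaling (-0.7, adjusted p = 0.0309) and a fit of all 12 libraries (-0.54, adjusted p = 0.0239) called it too. Over the alternatives that keep all libraries or drop the replicate 3 libraries, the value ran from -0.7 to -0.2 (adjusted p = 0.0239 to 0.406), with -0.28 when only library size was scaled and -0.48 without the replicate 3 libraries (adjusted p = 0.159). *DWF4* rose in *octuple*-vs-*quintuple*, by 0.69 ± 0.18 on the log2 scale or 1.62-fold (adjusted p = 0.0197). That call was lost without *quintuple* replicate 1 or without *octuple* replicate 2 or 3 (adjusted p = 0.0547 to 0.0645), without the replicate 3 libraries (0.53, adjusted p = 0.0719), with scaling by library size alone (0.44, adjusted p = 0.149) and on FPKM with pseudocounts of 1 and 0.1 (0.33 and 0.42, adjusted p = 0.176 and 0.188). The log2 fold changes were 0.12 in *octuple*-vs-WT, -0.19 in *octuple*-vs-*epn* and 0.30 in *epn*-vs-WT, and none of these passed.

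*CPD* (AT5G05690, chr5:1702640-1706948, minus strand) encodes another P450 of synthesis, whose loss makes strong dwarfs. Its levels were 125, 125 and 73.8 CPM in *octuple*, 82.0, 83.1 and 30.7 CPM in *quintuple*, 90.4, 123 and 83.5 CPM in *epn*, and 120, 139 and 87.5 CPM in WT. Replicate 3 was the lowest library of every genotype, and within each replicate number *quintuple* was the lowest genotype. The 3 *quintuple* libraries lay below all WT and all *epn* libraries. Without regard to the replicate number, the log2 fold change of -0.82 ± 0.40 in *quintuple*-vs-WT did not pass (adjusted p = 0.118). With the replicate block it was -0.93 ± 0.23 and passed (adjusted p = 0.0221), and with replicates 1 and 2 alone it was -0.66 (adjusted p = 0.00655). The same held in *octuple*-vs-*quintuple*, where 0.76 ± 0.41 did not pass (adjusted p = 0.172) and the blocked value of 0.85 ± 0.19 did (adjusted p = 0.0167), as did 0.62 with replicates 1 and 2 alone (adjusted p = 0.00904). *CPD* stayed within 0.22 of 0 on the log2 scale in the comparisons among *octuple*, *epn* and WT.

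*BR6OX2* (AT3G30180, chr3:11810726-11813883, plus strand) encodes the P450 of the last oxidations, which can form brassinolide, the most active brassinosteroid. It had 23.5, 14.8 and 10.7 CPM in *octuple*, 42.9, 31.9 and 26.6 CPM in *quintuple*, 25.2, 16.2 and 10.8 CPM in *epn*, and 21.7, 21.3 and 14.7 CPM in WT. The *quintuple* libraries were the 3 highest of the 12, and the lowest of them lay above the highest library of any other genotype. *BR6OX2* rose 1.76-fold in *quintuple*-vs-WT (log2 0.81 ± 0.24, adjusted p = 0.0249; 0.00822 with the block). The call was lost without *quintuple* replicate 1 or 2, or without WT replicate 2 or 3 (log2 0.61 to 0.87, adjusted p = 0.0541 to 0.0713), and in a fit of all 12 libraries (0.82, adjusted p = 0.0637). It fell in *octuple*-vs-*quintuple* by 1.02 ± 0.32 on the log2 scale (adjusted p = 0.0382), a call lost without *quintuple* replicate 1 or 2 and without *octuple* replicate 2 or 3 (adjusted p = 0.077 to 0.116). Thus *BR6OX2* was higher in *quintuple* than in WT, where *DWF4* and *CPD*, which act earlier in the same pathway, had negative values. In *octuple*-vs-WT and *octuple*-vs-*epn* the log2 values were -0.23 and -0.10, and neither passed.

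*BRI1* (AT4G39400, chr4:18324457-18328831, plus strand) encodes the main brassinosteroid receptor and is a gene with 1 exon. It had 181, 153 and 106 CPM in *octuple*, 145, 142 and 94.8 CPM in *quintuple*, 132, 139 and 103 CPM in *epn*, and 139, 153 and 99.6 CPM in WT. The ranges of all genotypes overlapped, and replicate 3 was the lowest library of each. No comparison passed the test, and the log2 fold changes ran from -0.06 ± 0.20 in *epn*-vs-WT to 0.23 ± 0.26 in *octuple*-vs-*quintuple*. In *quintuple*-vs-WT the value was -0.04 ± 0.24 (adjusted p = 0.905). Its sign depended on the scaling, with 0.23 for library size alone, a scaling that also moves the median of all genes to 0.27. Relative to that median *BRI1* was not above the other genes.

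*BZR1* (AT1G75080, chr1:28185504-28188075, plus strand) had the clearest difference of the 6 genes. Its levels were 30.5, 26.8 and 26.7 CPM in *octuple*, 39.7, 35.2 and 42.0 CPM in *quintuple*, 19.0, 21.2 and 23.1 CPM in *epn*, and 21.2, 20.6 and 25.2 CPM in WT. All *quintuple* libraries were above all *octuple* libraries, which in turn were above all *epn* and WT libraries, while *epn* and WT overlapped. In *quintuple*-vs-WT *BZR1* rose 1.74-fold (log2 0.80 ± 0.14, adjusted p = 0.00352), and the call held without each library in turn (6 of 6, adjusted p at most 0.0184). In *octuple*-vs-*quintuple* it fell by 0.45 ± 0.13 on the log2 scale (adjusted p = 0.0271), and that call was lost without *quintuple* replicate 1 or 3 or without *octuple* replicate 2 or 3 (adjusted p = 0.0517 to 0.0991), without the replicate 3 libraries (-0.36, adjusted p = 0.0833) and with upper-quartile scaling (-0.36, adjusted p = 0.0647). The *octuple* values of 0.33 ± 0.12 against WT and 0.40 ± 0.13 against *epn* had unadjusted p of 0.0328 and 0.0206 and did not pass after adjustment (adjusted p = 0.284 and 0.22). *BZR1* shares 282 exonic bases with the gene AT1G75090 on the opposite strand, which averaged 161.2 counts, and the strand setting of the counting is not given in the sources used here. AT1G75090 itself had 2.33 ± 0.989 CPM in *quintuple* and 4.25 ± 2.39 CPM in WT (SD, n = 3 each), a difference opposite in sign to that of *BZR1* that passed with the block alone (log2 -0.81, adjusted p = 0.0359).

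*BES1* (AT1G19350, chr1:6688463-6691216, plus strand), a close relative of *BZR1*, had another order of genotypes. It had 193, 155 and 168 CPM in *octuple*, 102, 105 and 55.9 CPM in *quintuple*, 142, 83.3 and 143 CPM in *epn*, and 126, 90.7 and 130 CPM in WT. The *octuple* libraries were the 3 highest of the 12, and the *quintuple* range overlapped those of *epn* and WT. *BES1* rose 2.0-fold in *octuple*-vs-*quintuple* (log2 1.00 ± 0.26, adjusted p = 0.0204), a call lost only without *octuple* replicate 1 among the 6 libraries (0.92, adjusted p = 0.063). In *octuple*-vs-WT the log2 fold change was 0.57 ± 0.17 (adjusted p = 0.196), and it passed with the block (0.59 ± 0.09, adjusted p = 0.00733). In *octuple*-vs-*epn* it was 0.48 ± 0.23 (adjusted p = 0.424; 0.51 and 0.0499 with the block). The value of -0.40 ± 0.28 in *quintuple*-vs-WT did not pass (adjusted p = 0.258), and it was -0.07 without the replicate 3 libraries (adjusted p = 0.742). *BES1* shares 818 of its 2437 exonic bases with *RRA3* on the opposite strand, so its counts are uncertain if strand was ignored. *RRA3* had 26.4 ± 1.66 CPM in *octuple*, 34.5 ± 5.35 CPM in *quintuple*, 20.9 ± 1.02 CPM in *epn* and 24.7 ± 2.05 CPM in WT (SD, n = 3 each). Its 0.48 in *quintuple*-vs-WT (adjusted p = 0.0338) lost its call with the block (0.0667), without the replicate 3 libraries (0.28, adjusted p = 0.101) and in 5 of the 6 fits with a library left out (at most 0.0962).

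**Figure D2:**
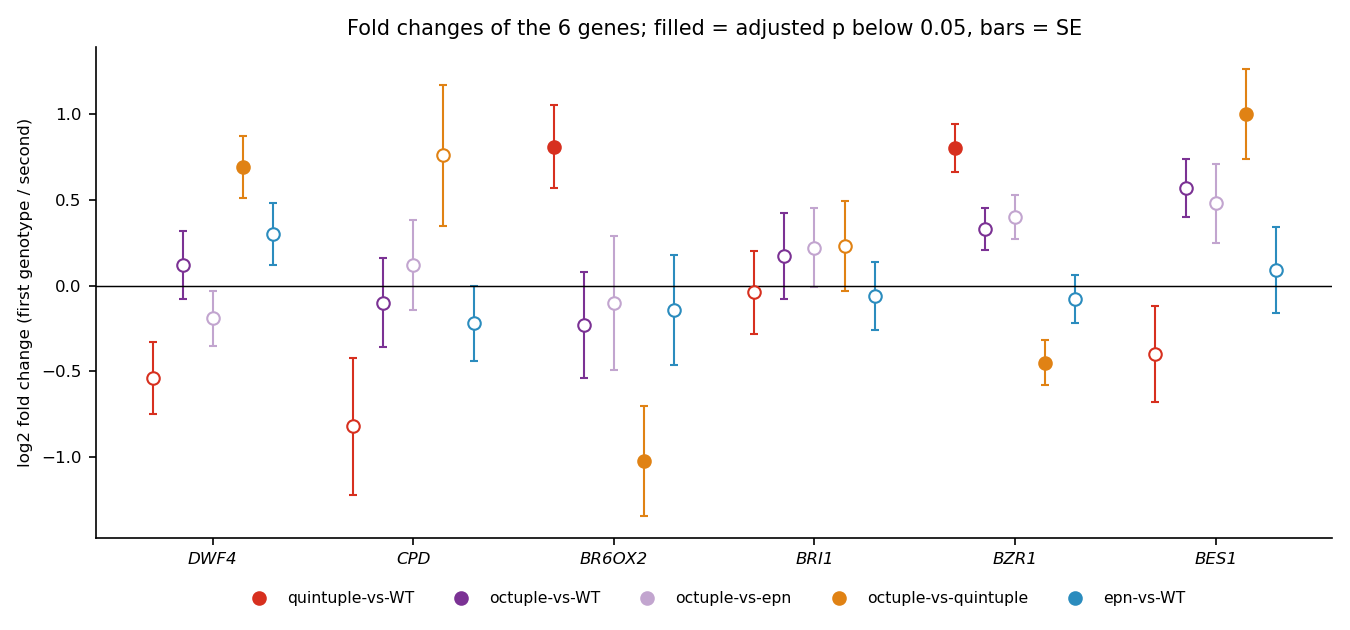
Log2 fold changes of the 6 genes with their SE in 5 comparisons of genotypes, each named as first genotype against second. Filled points passed an adjusted p of 0.05, and they were *BR6OX2* and *BZR1* in *quintuple*-vs-WT and *DWF4*, *BR6OX2*, *BZR1* and *BES1* in *octuple*-vs-*quintuple*.

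In all, 2 of the 6 genes changed in *quintuple*-vs-WT, where 56.9% of the 19691 genes tested changed, and 4 with the block, where 57.6% did. DESeq2 called 3 members, beside 6433 up and 6209 down of 23245 genes. Upper-quartile scaling also called 3, beside 4790 up and 6296 down of 19691. Leaving out 1 library gave 1 to 3 genes: 1 gene without *quintuple* replicate 1 or 2 or without WT replicate 2 or 3, and 3 genes without WT replicate 1. The members' share was thus below that of all genes without the block and above it with the block. In *octuple*-vs-*quintuple*, 4 of 6 changed, against 48.5% of all genes tested, with 5 under the block (50.9%) and 1 to 3 when a library was left out. In *octuple*-vs-WT and *octuple*-vs-*epn*, 0 of 6 changed, against 2.22% and 2.65% of all genes. The unadjusted p was below 0.05 for 2 and 1 of the 6 genes there, DESeq2 called 0 in both, and the block called 1 in both, *BES1* (15.5% and 11.8% of all genes). In *epn*-vs-WT, 0 of 6 changed in edgeR, in DESeq2 and with the block, 0 had an unadjusted p below 0.05 in the test without the block, and 0.0% of all genes passed in edgeR (1.01% with the block), although 419 had an unadjusted p below 0.05 and DESeq2 called 11 up and 36 down.

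The difference (*octuple* - *epn*) minus (*quintuple* - WT), called background dependence below, asks whether loss of the CBP60 genes acts differently in the *epn* background. It was 0.37 ± 0.25 for *DWF4*, 0.94 ± 0.51 for *CPD*, -0.91 ± 0.49 for *BR6OX2*, 0.26 ± 0.34 for *BRI1*, -0.40 ± 0.18 for *BZR1* and 0.88 ± 0.39 for *BES1* on the log2 scale. None of the 6 passed over all genes (adjusted p = 0.106 to 0.593), while 31.7% of the genes tested did. The unadjusted p was below 0.05 for 2 genes, *BZR1* (0.0476) and *BES1* (0.044), and DESeq2 called 0. With the block, *CPD* (0.99, adjusted p = 0.0199) and *BR6OX2* (-0.89, adjusted p = 0.00758) passed, against 43.8% of all genes. Without the replicate 3 libraries *CPD* passed too (0.89, adjusted p = 0.0227). *BES1* had a positive value in both *octuple* comparisons and a negative one in *quintuple*-vs-WT, but this difference did not pass (adjusted p = 0.106).

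The pathway was then followed through 60 genes in 6 lists by role, the 6 members included. The lists were written with earlier results of these data known, so their counts and medians are descriptions and carry no test. In *quintuple*-vs-WT, 11 of the 56 tested rose and 16 fell, which is 48.2% against 56.9% of all genes tested, with a median log2 fold change of -0.19 against 0.00. In *octuple*-vs-WT and *octuple*-vs-*epn*, 1 gene of 56 and 1 of 57 changed, *TCP1* in both. With the block, 11 and 6 genes of the lists changed in these comparisons (19.6% and 10.5% of those tested, against 15.5% and 11.8% of all genes), as described with each list below. DESeq2, without the block, called 6 of 58 list genes (10.3%) and 4 of 57 (7.02%). Over all genes it called 1180 up and 267 down of 22950 in *octuple*-vs-WT, and 1298 up and 228 down of 22863 in *octuple*-vs-*epn*. In *epn*-vs-WT, 0 of 57 changed and 0 had an unadjusted p below 0.05.

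**Figure D3:**
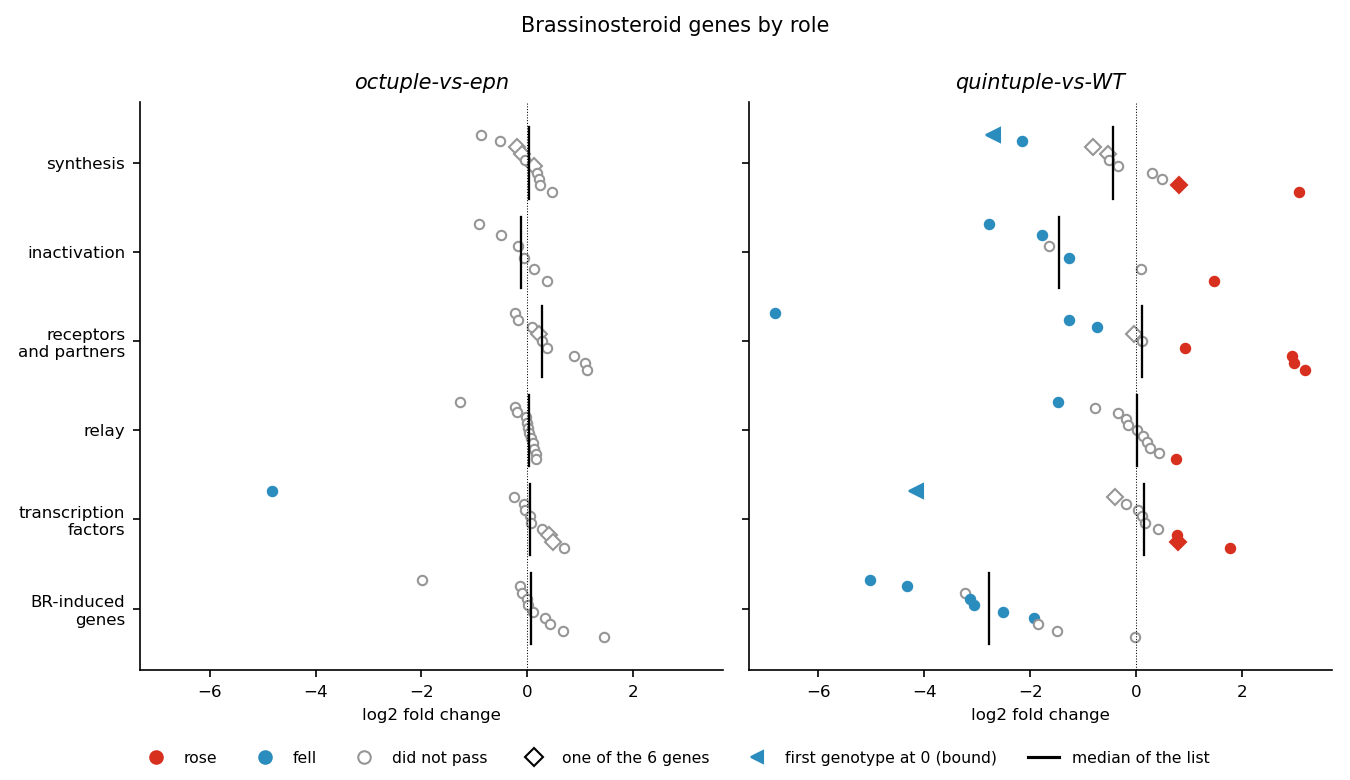
Log2 fold changes of the brassinosteroid genes tested, by role, in *octuple*-vs-*epn* and *quintuple*-vs-WT, with filled symbols for genes that passed, diamonds for the 6 members, triangles for the bound of genes with 0 counts in the first genotype, and a black line at the median of each list. In *quintuple*-vs-WT the BR-induced genes had a median of -2.79 and none rose, and in *octuple*-vs-*epn* their median was 0.07.

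Of the 10 genes of sterol and brassinosteroid synthesis, 2 rose (*BR6OX2* and *ROT3*) and 2 fell (*DWF1* and *BR6OX1*) in *quintuple*-vs-WT (40.0%, against 56.9% of all genes), with a median of -0.44, and of these 10 none changed in *octuple*-vs-WT or *octuple*-vs-*epn*. *DWF1*, which encodes a sterol reductase early in the route, had 315, 418 and 317 CPM in *octuple*, 80.4, 89.1 and 71.7 CPM in *quintuple*, 302, 435 and 346 CPM in *epn*, and 336, 414 and 330 CPM in WT. It fell 4.48-fold in *quintuple*-vs-WT (log2 -2.16 ± 0.18, adjusted p = 0.00033), while *octuple* did not leave the range of *epn* and WT. *ROT3*, a P450 gene that promotes the lengthwise growth of leaves, averaged 8.91 ± 3.51 CPM in *octuple*, 43.6 ± 11.9 CPM in *quintuple*, 6.42 ± 3.62 CPM in *epn* and 5.2 ± 3.24 CPM in WT (SD, n = 3 each). It rose 8.39-fold in *quintuple*-vs-WT (log2 3.07 ± 0.59, adjusted p = 0.00525), and its 0.78 in *octuple*-vs-WT passed with the block alone (0.94, adjusted p = 0.0344). *BR6OX1*, the paralog of *BR6OX2*, had 0 counts in the 3 *quintuple* libraries and 12 to 23 counts in the WT libraries, and was thus at least 6.51-fold lower with a limit of 3 counts per library. *DWF5* (0.30), *DWF7* (-0.35), *DET2* (0.49) and *CYP90D1* (-0.52) did not pass, and *DWF5* and *DET2* did when only library size was scaled (0.58 and 0.75), which adds 0.27 to the median of all genes. *DET2* also passed in a fit of all 12 libraries (0.5, adjusted p = 0.0445). *DWF7* passed with upper-quartile scaling (-0.5, adjusted p = 0.0255), which moves that median to -0.15. *CYP90D1* passed without *quintuple* replicate 2 (-0.84, adjusted p = 0.0242).

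Among 7 genes of inactivation, 6 were tested in *quintuple*-vs-WT, of which 1 rose and 3 fell (66.7%, against 56.9% of all genes, median -1.45). *UGT73C5*, whose product attaches glucose to brassinosteroids, rose 2.79-fold (8.46 ± 3.45 CPM in *octuple*, 30.4 ± 7.55 CPM in *quintuple*, 11.7 ± 3.08 CPM in *epn* and 10.9 ± 2.5 CPM in WT, SD, n = 3 each, adjusted p = 0.00306 in *quintuple*-vs-WT). *BEN1*, a reductase-like gene that lowers brassinosteroid activity, fell 6.89-fold (8.14 ± 4.46 CPM in *octuple*, 1.21 ± 0.716 CPM in *quintuple*, 9.16 ± 1.46 CPM in *epn* and 8.32 ± 2.44 CPM in WT, adjusted p = 0.00309). *UGT73C6* (log2 -1.77, adjusted p = 0.019) and *BAT1* (-1.27, adjusted p = 0.0409), a glucosyltransferase and an acyltransferase gene, fell as well. The *UGT73C6* call was lost without WT replicate 1 or 2 (adjusted p = 0.0504 and 0.0597), the *BAT1* call without any 1 of the 6 libraries (0.0643 to 0.0988), with the block (0.0782), without the replicate 3 libraries (-0.92, adjusted p = 0.154), and with scaling by library size, no filter or FPKM (0.056 to 0.082). *UGT73C5* and *UGT73C6* share 6.76% and 7.86% of their exonic 50-base sequences with other genes. *BAS1*, a hydroxylase gene, had 3.11, 5.27 and 1.96 CPM in *octuple*, 1.59, 1.44 and 0.213 CPM in *quintuple*, 2.86, 4.47 and 2.07 CPM in *epn*, and 3.63, 4.82 and 1.58 CPM in WT, and its -1.64 in *quintuple*-vs-WT passed only with the block (-1.86, adjusted p = 0.0163) or without the replicate 3 libraries (-1.49, adjusted p = 0.00732). *BIA1* was too low to be tested, with 0 to 5 counts in *octuple* libraries, 8 to 37 in *quintuple*, 0 to 1 in *epn* and 0 in WT. In *octuple*-vs-WT the block added *BAT1* (1.19, adjusted p = 0.0468) as higher and *UGT73C6* (-1.04, adjusted p = 0.0468) as lower. DESeq2, without the block, called both as well (1.22 and -1.06, adjusted p = 0.0185 and 0.00818).

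Of the 9 genes of receptors and their partners, 4 rose and 3 fell in *quintuple*-vs-WT (77.8%, against 56.9% of all genes), with a median of 0.12. *BRL1* and *BRL3*, paralogs of *BRI1* that also bind the hormone and act in vascular cells, rose where *BRI1* did not. *BRL1* had 6.61, 5.42 and 6.67 CPM in *octuple*, 20.8, 23.6 and 30.3 CPM in *quintuple*, 3.41, 2.85 and 3.76 CPM in *epn*, and 3.09, 2.11 and 4.23 CPM in WT, with a 7.9-fold rise in *quintuple*-vs-WT (log2 2.98 ± 0.30, adjusted p = 0.000552). *BRL3* had 10.6, 10.3 and 22.9 CPM in *octuple*, 54.5, 47.4 and 79.9 CPM in *quintuple*, 4.93, 3.86 and 11.6 CPM in *epn*, and 5.6, 4.32 and 9.84 CPM in WT, with a 9.18-fold rise (log2 3.2 ± 0.38, adjusted p = 0.000851). All *octuple* libraries of *BRL1* were above all *epn* and WT libraries. The third paralog on the list, *BRL2*, had 0.12 ± 0.25 and did not pass. *BAK1*, the co-receptor of BRI1 and of immune receptors, rose 1.89-fold (70.9 ± 14.7 CPM in *quintuple* and 37.6 ± 2.88 CPM in WT, SD, n = 3 each, adjusted p = 0.0054), and the related *BKK1* rose 7.67-fold (adjusted p = 0.00156). *BKK1* shares 25.2% of its exonic 50-base sequences with other genes, so its level is uncertain.

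*SERK1*, another co-receptor gene, fell to 3.47 ± 0.0213 CPM in *quintuple*, against 8.39 ± 1.04 CPM in WT (SD, n = 3 each, log2 -1.27 ± 0.17, adjusted p = 0.00127). *BRS1*, a secreted carboxypeptidase gene found through a weak *bri1* allele, had 35.3, 44.9 and 39.8 CPM in *octuple*, 0.855, 0.183 and 0.135 CPM in *quintuple*, 50.4, 49.5 and 40.5 CPM in *epn*, and 44.0, 46.0 and 40.0 CPM in WT. Its 113-fold fall (log2 -6.82 ± 0.68, adjusted p = 0.000539) was the most extreme of the list genes with counts in all libraries of that comparison, and the *octuple* range overlapped that of WT. *BKI1*, the inhibitor of BRI1, fell by 0.73 ± 0.23 on the log2 scale (adjusted p = 0.0323), a call lost with scaling by library size alone (-0.48, adjusted p = 0.194), on FPKM (0.234 and 0.235), in a fit of all 12 libraries (0.057), and without *quintuple* replicate 1, 2 or 3 or WT replicate 1 or 3 (0.0512 to 0.0918). In *octuple*-vs-WT and *octuple*-vs-*epn* the receptors and partners had 0 calls of 9. With the block, *BRL1* (1.03 and 0.89), *BRL3* (1.13 and 1.15) and *BKK1* (1.24 and 1.18) were higher in both (adjusted p = 0.00151 to 0.0166), and *BRL3* was also higher in *octuple*-vs-*epn* without the replicate 3 libraries (1.25, adjusted p = 0.0262). Without the block, DESeq2 also called *BRL1* (0.98 and 0.89, adjusted p = 0.0296 and 0.00384) higher in both. The same held for *BKK1* (1.16 and 1.13, adjusted p = 0.0328 and 0.0234).

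Of 13 relay genes, 11 were tested in *quintuple*-vs-WT and only *BSK1* (up) and *BSK2* (down), which encode receptor-associated kinases, changed (18.2%, against 56.9% of all genes, median 0.01). *BSK2* fell to 8.52 ± 0.349 CPM in *quintuple*, against 23.7 ± 3.31 CPM in WT (SD, n = 3 each, log2 -1.48 ± 0.15, adjusted p = 0.000549), and averaged 21.2 ± 4.02 CPM in *octuple*. The rise of *BSK1* by 0.76 (adjusted p = 0.0233) was lost without *quintuple* replicate 1 or WT replicate 1 or 2 (0.0506 to 0.081) and with upper-quartile scaling (0.0589). *BIN2*, the kinase that holds BZR1 and BES1 inactive, averaged 113 ± 5.8 CPM in *octuple*, 94.3 ± 12.0 CPM in *quintuple*, 107 ± 2.06 CPM in *epn* and 108 ± 7.48 CPM in WT and did not pass (-0.19, adjusted p = 0.287). Its homologs *BIL1* (-0.34) and *BIL2* (-0.16) and the phosphatase genes *BSL1* (0.43), *BSL2* (0.26) and *BSL3* (0.20) did not pass either. *BIL1* passed without the replicate 3 libraries (-0.47, adjusted p = 0.0162), with DESeq2 (0.0447), with upper-quartile scaling (0.0294), in a fit of all 12 libraries (0.0316) and without *quintuple* replicate 3 (0.0183). *BSL1* and *BSL2* passed when only library size was scaled (0.71 and 0.53, adjusted p = 0.0487 and 0.037). *BSK5* (-0.78, adjusted p = 0.0528) passed with the block (-0.77, adjusted p = 0.0275). It also passed with DESeq2 (0.0327), with upper-quartile scaling (0.0334), in a fit of all 12 libraries (0.0288) and without *quintuple* replicate 2 or WT replicate 1 (0.0424 and 0.027). No relay gene changed in *octuple*-vs-WT or *octuple*-vs-*epn*, with or without the block.

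Of the 10 transcription factor genes tested, *BZR1*, *BEH3* and *BIM3* rose and *TCP1* fell in *quintuple*-vs-WT (40.0%, against 56.9% of all genes, median 0.14). *BEH3*, a homolog of *BES1*, had 13.5, 10.8 and 13.5 CPM in *octuple*, 27.3, 24.0 and 22.3 CPM in *quintuple*, 7.56, 6.57 and 8.89 CPM in *epn*, and 6.82, 6.3 and 8.42 CPM in WT. Like *BZR1*, it had all *quintuple* libraries highest and all *octuple* libraries between these and the rest. It rose 3.41-fold in *quintuple*-vs-WT (log2 1.77 ± 0.17, adjusted p = 0.000476), and its 0.81 in *octuple*-vs-WT (adjusted p = 0.0723) and 0.70 in *octuple*-vs-*epn* (adjusted p = 0.109) passed with the block (0.00599 and 0.0147). Both also passed without the block in DESeq2 (0.00221 and 0.0228) and in a fit of all 12 libraries (0.0239 and 0.0388). *BIM3*, which encodes a BES1-interacting bHLH protein, rose by 0.78 ± 0.17 (adjusted p = 0.00864). The other homologs *BEH1*, *BEH2* and *BEH4* had 0.42, 0.03 and 0.17 and did not pass. *TCP1*, reported in Arabidopsis to activate *DWF4*, had 1, 1 and 2 counts in *octuple* libraries as its lowest to highest values, 0 counts in all *quintuple* libraries, 14 to 69 counts in *epn* and 24 to 83 counts in WT. It was at least 17.8-fold lower in *quintuple* than in WT, with a limit of 3 counts per library. The ratio of summed counts was 0.026 in *octuple*-vs-WT (exact 95% interval 0.00698 to 0.0679) and 0.0323 in *octuple*-vs-*epn* (0.00866 to 0.085), for counting error only. *TCP1* fell in both (adjusted p = 0.0271 and 0.0323). The call in *octuple*-vs-WT was lost without each library but WT replicate 3 (0.0591 to 0.145), and that in *octuple*-vs-*epn* without each of the 6 libraries (0.0544 to 0.161) and without the replicate 3 libraries (0.0524). On FPKM neither passed (0.051 to 0.232).

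The 10 brassinosteroid-induced genes had 0 up and 6 down in *quintuple*-vs-WT (60.0%). Of all genes tested, 56.9% changed in either direction and 27.7% fell. The median of the 10 genes was -2.79, and none of them changed in *octuple*-vs-WT or *octuple*-vs-*epn* (medians 0.06 and 0.07). The 6 that fell were *BEE1*, *BEE2*, *BEE3*, *PRE1*, *PRE5* and *KDR*, all of which encode helix-loop-helix proteins that promote growth. *BEE1* had 5.18, 6.59 and 4.73 CPM in *octuple*, 0.537, 0.16 and 0.0193 CPM in *quintuple*, 4.2, 3.26 and 5.53 CPM in *epn*, and 4.93, 5.17 and 4.0 CPM in WT, and fell 20.1-fold in *quintuple*-vs-WT (log2 -4.33 ± 0.84, adjusted p = 0.00556). *BEE2* had 54.5, 57.8 and 47.5 CPM in *octuple*, 21.5, 14.5 and 6.34 CPM in *quintuple*, 64.7, 57.6 and 52.1 CPM in *epn*, and 52.6, 53.9 and 52.7 CPM in WT, and fell 3.78-fold (log2 -1.92 ± 0.41, adjusted p = 0.00808). For both genes *octuple* overlapped WT, and every *quintuple* library was below every library of the other genotypes.

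*KDR* averaged 7.88 ± 3.43 CPM in *octuple*, 1.02 ± 0.0523 CPM in *quintuple*, 7.87 ± 3.68 CPM in *epn* and 8.55 ± 4.08 CPM in WT (SD, n = 3 each), with an 8.34-fold fall in *quintuple*-vs-WT (adjusted p = 0.00142). *BEE3* fell by 5.03 ± 1.0 on the log2 scale (adjusted p = 0.00606). *PRE1* (-3.13, adjusted p = 0.0354) lost its call without *quintuple* replicate 1 or 2 or WT replicate 1 or 2 (0.0605 to 0.0991). *PRE5* (-2.51, adjusted p = 0.0412), with 1 to 8 counts in *quintuple* libraries, lost it with the block (0.0701), without the replicate 3 libraries (-1.99, adjusted p = 0.119), with no filter (0.0633) and without any library but *quintuple* replicate 1 (0.0663 to 0.117). The remaining genes, *SAUR15*, *IAA19*, *TCH4* and *EXPA8*, encode an auxin-responsive protein, an auxin signalling repressor, a xyloglucan endotransglucosylase and an expansin. They varied between replicates, and *EXPA8* had 99.6, 56.6 and 5.48 CPM in *octuple*, 9.3, 7.56 and 0.329 CPM in *quintuple*, 71.1, 70.1 and 8.66 CPM in *epn*, and 65.2, 88.2 and 8.99 CPM in WT, with replicate 3 the lowest of each genotype. *EXPA8* (-3.24, adjusted p = 0.0619) and *SAUR15* (-1.85, adjusted p = 0.181) passed with the block (0.00232 and 0.0182), and without the replicate 3 libraries *TCH4* passed as well (-1.61, adjusted p = 0.0355), which gives 8 of 10 down. *EXPA8* also passed with DESeq2 (0.0269), upper-quartile scaling (0.0495), FPKM with a pseudocount of 1 (0.0466) and without WT replicate 3 (0.0326). *IAA19* was at -0.02. With the block, *IAA19* (0.69, adjusted p = 0.0207) was higher and *TCH4* (-1.86, adjusted p = 0.00317) lower in *octuple*-vs-WT, and *TCH4* was also lower there without the replicate 3 libraries (-2.12, adjusted p = 0.00986).

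**Figure D4:**
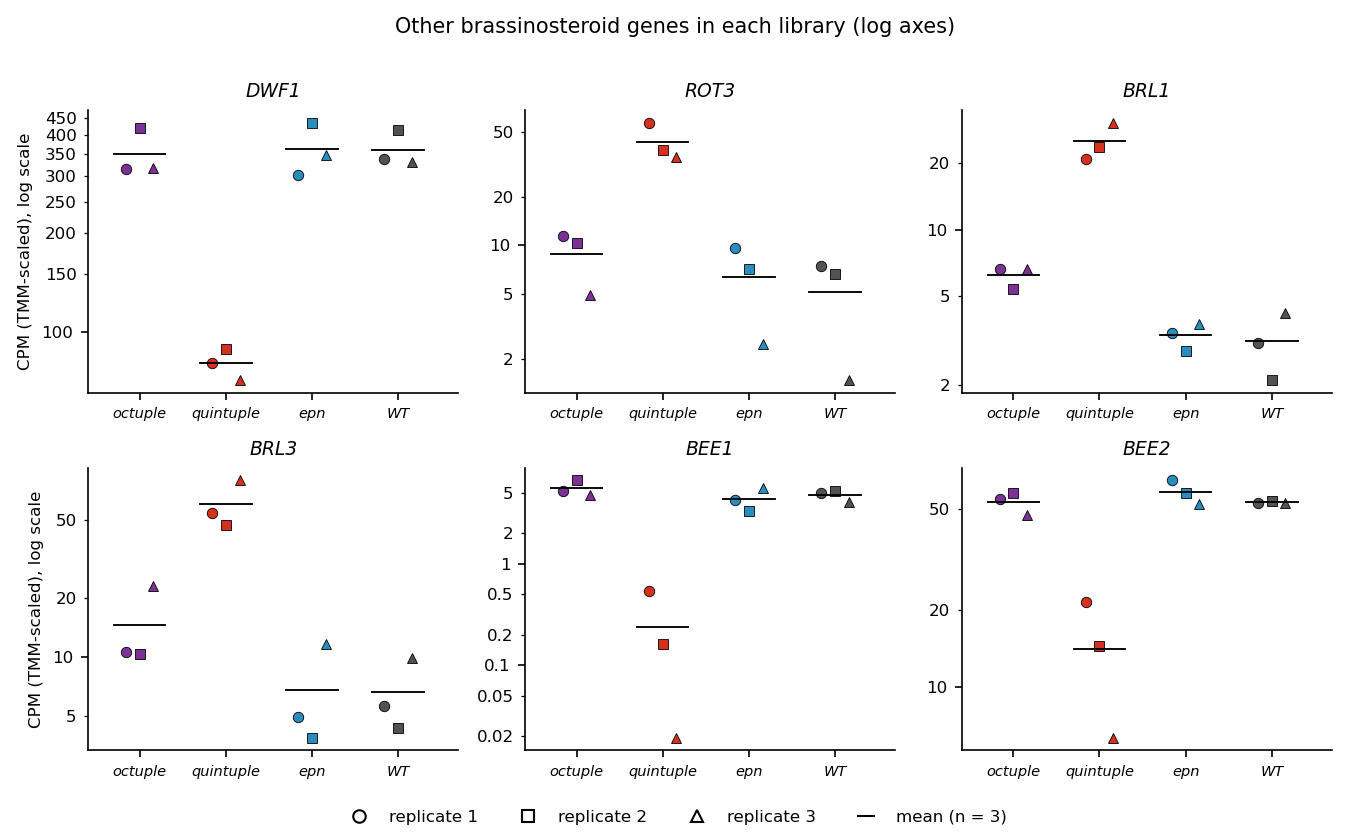
TMM-scaled CPM, on log axes that differ between panels, of *DWF1*, *ROT3*, *BRL1*, *BRL3*, *BEE1* and *BEE2* in the 12 libraries, by genotype from *octuple* to WT, with symbols for replicates 1 to 3 and a line at the mean (n = 3). In each panel the 3 *quintuple* libraries lie apart from those of the other genotypes, below them for *DWF1*, *BEE1* and *BEE2* and above them for *ROT3*, *BRL1* and *BRL3*.

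As a description of likeness, the log2 CPM of each member was correlated with that of 20097 genes over the 12 libraries, which share genotype and replicate differences. The nearest genes were *ABCG3* (Pearson r = 0.984), *MSH3* (0.983) and AT5G16230 (0.949) for *DWF4*, *PSAG* (0.978), AT4G38700 (0.978) and *PSAL* (0.977) for *CPD*, and *ASG1* (0.957), *MPK5* (0.957) and AT5G38850 (0.954) for *BR6OX2*. They were *CP5* (0.961), *DEAR2* (0.959) and *COL4* (0.959) for *BRI1*, *LEA4-5* (0.985), *GLN1.3* (0.983) and *PRXCB* (0.982) for *BZR1*, and *TRX1* (0.911), AT4G30310 (0.905) and *RWA2* (0.897) for *BES1*. *PSAG* and *PSAL* encode subunits of photosystem I, and 2 of the 3 nearest genes of *CPD* were of this kind. Among the members, *DWF4* ran against *BR6OX2* (r = -0.82) and *BZR1* (-0.75), *CPD* ran with *BRI1* (0.72) and against *BZR1* (-0.63), and *BZR1* and *BES1* had r = -0.32. These values describe 12 libraries of 4 genotypes and carry no test.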

How the data were processed

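RNA was measured in 12 libraries, 3 of each genotype. Per the labels and the study's methods, TRIzol was used for the RNA, a VAHTS Universal kit for the libraries and a NovaSeq for sequencing. The submitters' processing notes name HISAT2, HTSeq and R 3.2.0, and the versions of the first pair, the build and the strand setting are not given in the sources used here. The authors deposited raw counts per gene, whole numbers without normalization, and FPKM values, which divide the counts by library total and gene length. The values of all 24 sample files were identical to the tables of the whole series. The lengths implied by the FPKM equalled the exon lengths of RefSeq TAIR10.1 within 1 base for all 23784 genes, so positions and promoters were read from that assembly.

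Counts were fitted with edgeR 4.0.16 in R 4.3.3 (TMM factors, filterByExpr, quasi-likelihood test, Benjamini-Hochberg over all genes tested), on the 6 libraries of each comparison and, for background dependence, on all 12. The script was tested on simulated data. Alternatives were DESeq2 1.42.0, other scalings, no filter, 1 fit of all libraries, limma 3.58.1 on log2(FPKM + 1) and log2(FPKM + 0.1), the replicate number as a block, and leaving out each library. A fit with replicates 1 and 2 only was added after the data were seen. No 2 libraries of a genotype were copies, with at most 1.662% of genes at identical counts.

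Deviations of the libraries from their genotype means were correlated across genes. In all 18 pairs with equal replicate numbers r was 0.255 to 0.891. In 36 pairs with different numbers r was -0.701 to 0.397, so the ranges overlapped. The libraries numbered 3 stood off from the rest, as described above. Whether the other numbers pair the samples was not tested apart from these libraries, so the block takes the pairing as given. The labels do not say what a number marks.

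The members, the gene lists and the markers were chosen with earlier results of these data known. Genes named are the members, genes of the lists, and the 3 genes with the highest Pearson correlation with each member. Symbols and IDs came from RefSeq. Antisense and shared sequence were judged from annotated exons and from exonic 50-base sequences.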

Additional observations from a re-analysis of the deposited data

Results flagged for a closer look

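For 18 genes of the brassinosteroid lists the difference (*octuple* - *epn*) minus (*quintuple* - WT), tested as an interaction over 12 libraries in edgeR, had an adjusted p below 0.05. They are 18 of the 57 list genes tested (31.6%, against 31.7% of all genes), and none of the 6 members is among them. With the replicate number as a block, 28 of the 57 passed (49.1%, against 43.8% of all genes), which included all 18 and the members *CPD* and *BR6OX2*. On the log2 scale, 11 were positive: *DWF1* (2.12), *BR6OX1* (6.34), *BEN1* (2.61), *SERK1* (1.36), *BRS1* (6.59), *BSK2* (1.26), *BEE1* (4.67), *BEE2* (1.79), *BEE3* (5.06), *PRE5* (3.96) and *KDR* (3.06). The value of *BR6OX1* rests on 0 counts in all *quintuple* libraries and so depends on the fit. The other 7 were negative: *ROT3* (-2.6), *UGT73C5* (-1.96), *BRL1* (-2.09), *BRL3* (-2.1), *BKK1* (-1.81), *BEH3* (-1.06) and *BIM3* (-0.73). Each of the 18 genes had passed in *quintuple*-vs-WT in the direction opposite to this sign. The value contains the *quintuple*-vs-WT difference with a minus sign, so the opposite direction is largely built in and is no separate result. With each of the 12 libraries left out in turn, *ROT3*, *BRL3*, *BKK1*, *BIM3* and *PRE5* kept an adjusted p below 0.05 in 4, 5, 5, 7 and 4 of the 12 fits, with highest values of 0.0964 without *epn* replicate 1, 0.0856 and 0.0813 without *octuple* replicate 2, 0.0683 without WT replicate 3 and 0.0751 without *quintuple* replicate 2. The other 13 kept it in all 12.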

How the results depend on the processing

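With the replicate number as a block, the members that changed numbered 4 in *quintuple*-vs-WT (2 without it), 1 each in *octuple*-vs-WT and *octuple*-vs-*epn* (0 without it) and 2 in background dependence (0 without it). Beside the calls given in the report, the block changed no other call of a member. With replicates 1 and 2 only, 1 member (*CPD*) passed in background dependence. When each library was left out, 1 to 3 members changed in *quintuple*-vs-WT, 1 to 3 in *octuple*-vs-*quintuple*, and 0 in *octuple*-vs-WT, *octuple*-vs-*epn*, *epn*-vs-WT and background dependence. Of 606 values of members under alternatives, 24 changed sign, none of them past the threshold. *BRI1* in *quintuple*-vs-WT was 0.23 by library size alone and 0.22 and 0.23 by FPKM with pseudocounts of 1 and 0.1, and -0.02, -0.03 and -0.03 in *octuple*-vs-*quintuple*. With a library left out, values that changed sign ran from -0.22 to 0.14 in *quintuple*-vs-WT for *BRI1*. In *octuple*-vs-WT they ran from -0.03 to 0.24 for *DWF4*, -0.26 to 0.12 for *CPD*, -0.59 to 0.0 for *BR6OX2* and -0.01 to 0.36 for *BRI1*. In *octuple*-vs-*epn* they ran from -0.01 to 0.33 for *CPD* and -0.46 to 0.27 for *BR6OX2*, and in *epn*-vs-WT from -0.51 to 0.1 for *BR6OX2*, -0.22 to 0.07 for *BRI1*, -0.16 to 0.01 for *BZR1* and -0.06 to 0.3 for *BES1*. In 23 member values a call was lost and in 14 one was gained. Scaling by library size alone moved the median of all genes to 0.27 in *quintuple*-vs-WT and -0.24 in *octuple*-vs-*quintuple*, and upper-quartile scaling to -0.15 and 0.1. With 3 libraries each and *PRE5*, *BIA1*, *TCP1* and *BR6OX1* at few or 0 counts, differences of these genes are limited by counting. A p that missed the threshold does not show equal levels.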
